A study of Chlamydomonas reinhardtii with 25 samples.

Results

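The 150 genes described here are from Chlamydomonas reinhardtii, a unicellular green alga. After scaling of the libraries, their transcripts lay below the unexposed control in cells exposed to cerium. In cells exposed to thulium, to yttrium or to a mixture of the 3 metals they lay above it. They were chosen by measured values, from 7985 of the 19526 transcripts in the table. These 7985 had a mean of at least 5 counts per 1e6 scaled counts (CPM) in any group. Scaled means that each library total was multiplied by a scaling factor (TMM). With library totals alone, 61 of the 150 genes lay below the control in cerium, and all 150 lay above it in the other exposures. For each transcript the log2 change of every exposure against the control was computed from the group means (log2 of CPM + 0.5), and the smallest of the fall in cerium and the rises in thulium, yttrium and the mixture was taken as the rule value. The 150 transcripts with the highest rule value, 0.481 to 1.04, form the group. The direction of every exposure against the control, and of cerium against the other exposures, is therefore fixed by the choice and is given below as a description, with no test.

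RNA was sequenced from 25 samples of the wild-type strain CC-125 in mid-exponential growth, 5 for each of control, Ce, Tm, Y and Mix. A temperature of 20 °C and 12 h of light per day are given for all samples. The 2 h exposure took place in a buffer of NaHEPES (10 mM, pH 7.0) and calcium nitrate (10 µM), to which nothing else (control), 0.5 µM cerium (Ce), thulium (Tm) or yttrium (Y), or their equimolar mixture (Mix) had been added. The labels do not say whether 0.5 µM in Mix is the sum of the metals or the level of each, nor whether the 5 samples of a group were separate cultures, so p-values measure only the spread between these samples. Libraries held 12920957 to 28974088 counts.

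Cerium is a light and thulium a heavy rare earth element, and yttrium, which is not a lanthanide, is usually grouped with the heavy ones. Their trivalent ions resemble the calcium ion in size and can bind at sites that normally hold calcium or other metal ions. Genes appear under the IDs that the authors used. Neither the count table nor the reference gene table used here pairs them with names, so no function is attached to any of them. The reference gave 0 symbols other than locus tags, and no sequence is shown because none was supplied for these genes.

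Over the whole group the scaled level in Ce was below that of the control, and the rises in the other exposures were in the median slightly larger than the fall. The median log2 change against control was -0.67 in Ce (range -1.87 to -0.48), 0.82 in Tm (0.48 to 3.37), 0.69 in Y (0.48 to 2.74) and 0.89 in Mix (0.49 to 2.25). Over all transcripts past the floor (a mean of 5 CPM in any group) the medians were -0.06, 0.06, 0.11 and 0.06 in Ce, Tm, Y and Mix. All 4 directions held in 1073 of those transcripts, or 13.4%. The change was at least 2-fold in 15 of the 150 genes in Ce. It was that large in 42 genes in Tm, 33 in Y and 56 in Mix. Over all transcripts past the floor the lower and upper quartiles were -1.09 and 0.97 in Ce and -0.88 and 0.75 in Tm. In Y they were -0.96 and 0.92, and in Mix -0.84 and 0.72. A fall of at least 2-fold in Ce was thus common among all transcripts and not particular to the 150 genes. The exposure nearest to the control, which sets the rule value, was Ce in 70 genes, Y in 63, Mix in 9 and Tm in 8.

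**Figure D1:**
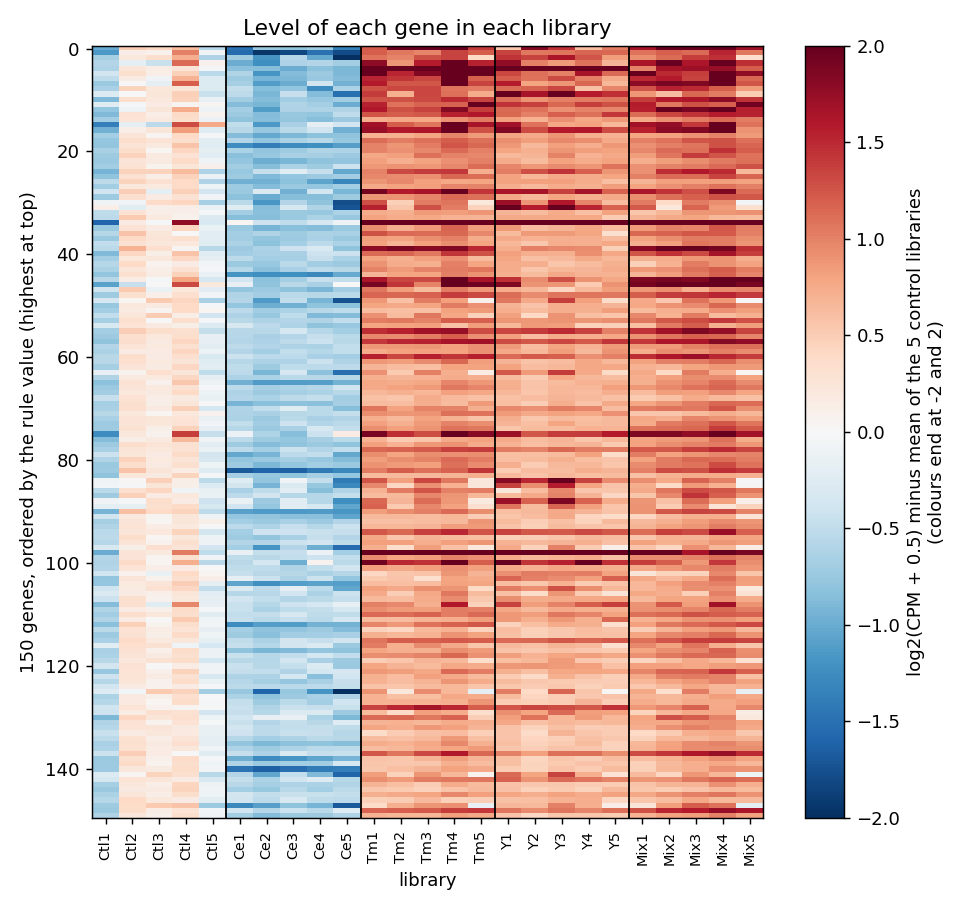
Heat map of the 150 genes (rows, highest rule value at the top) in 25 libraries (columns, by group and replicate number). Colour gives log2(CPM + 0.5) minus the mean of the 5 control libraries. The Ce columns and control library 1 are blue and the Tm, Y and Mix columns are red.

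The threshold cuts through a continuous series of values. The last 3 genes inside were Cre03g205900, Cre06g249800 and Cre12g517350, with rule values of 0.4813, 0.4809 and 0.4809. The first 3 outside were Cre16g683250, Cre11g476750 and Cre01g001950, with 0.4808, 0.4802 and 0.4797. The group is thus the upper end of the 1073 transcripts with this pattern and has no natural border.

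The most extreme values of the rule belonged to Cre08g372200. It was at 1.33, 4.70, 4.41, 5.20 and 1.97 CPM in control libraries 1 to 5 and at 0.813, 1.67, 1.60, 1.71 and 0.926 CPM in the Ce libraries. It stood at 8.04, 16.2, 21.8, 16.5 and 9.15 CPM in Tm, at 4.88, 12.5, 9.50, 5.09 and 6.90 CPM in Y, and at 11.0, 21.8, 24.4, 19.5 and 11.3 CPM in Mix. Control libraries 1 and 5 lay in or near the Ce range, and the Y libraries overlapped the upper controls, while all Tm and Mix libraries were above every control. The log2 changes were -1.12 in Ce, 1.89 in Tm, 2.17 in Mix and 1.04 in Y.

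The gene with the largest fall in Ce was g15679. Its level was 63.6, 156, 150, 286 and 135 CPM in control libraries 1 to 5 and 36.5 to 50.0 CPM in the Ce libraries, which all lay below every control. In Tm it was 281 to 364 CPM, in Y 294 to 363 CPM and in Mix 295 to 411 CPM. These 3 exposures reached about the same level, and the lowest Tm library was just under the highest control library. Against the control the log2 change was -1.87 in Ce and between 1.004 and 1.05 in the others. Falls of more than 1 log2 unit in Ce were also seen for g3728 (-1.58, from a mean of 40.8 to 13.3 CPM), Cre12g522200 (-1.52, from 143 to 49.6 CPM) and Cre14g618800 (-1.31, from 82.5 to 32.9 CPM).

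Cre11g4677001 was next to it in rule value. Its levels were 108.5, 200.8, 221.3, 285.5 and 112.2 CPM in control libraries 1 to 5 and 43.2 to 115.3 CPM in Ce. Control libraries 1 and 5 lay inside the Ce range. Tm held 227.9 to 442.4 CPM, Y 310.7 to 540 CPM and Mix 218 to 478.1 CPM, and of these groups only Y lay above every control.

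The largest rise belonged to Cre17g739650, in Tm. It was at 8.35, 15.6, 14.5, 15.8 and 12.8 CPM in control libraries 1 to 5 and at 6.35 to 7.22 CPM in Ce. In Tm it reached 123 to 155 CPM and in Y 77.3 to 99.8 CPM, while in Mix it was 26.5, 42.8, 43.9, 45.1 and 30.9 CPM. No 2 of the 5 groups overlapped, and the order of the groups was Ce, control, Mix, Y and Tm. The log2 changes were -0.91, 3.37, 2.74 and 1.46 in Ce, Tm, Y and Mix.

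Cre03g204250 had the highest CPM of the 150 genes (CPM are not corrected for transcript length). It was at 1435, 3752, 3745, 4231 and 1770 CPM in control libraries 1 to 5 and at 1610, 1971, 2342, 1992 and 1336 CPM in Ce. The levels were 4510 to 7249 CPM in Tm, 5016 to 7401 CPM in Y and 4267 to 8250 CPM in Mix. Control libraries 1 and 5 lay inside the Ce range, and the other 3 controls lay above it. Every Tm, Y and Mix library was above every control. The log2 changes were -0.69, 1.06, 1.05 and 1.14 in Ce, Tm, Y and Mix.

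The other genes chosen by the highest control CPM had smaller changes. Cre13g577100 had a mean of 1148 ± 317 CPM (SD, n = 5) in the control, 799 ± 172 in Ce, 1895 ± 254 in Tm, 1823 ± 343 in Mix and 2187 ± 335 in Y. Cre03g204550 was at 875 ± 237 CPM in the control, 569 ± 52.1 in Ce, 1243 ± 114 in Tm, 1249 ± 156 in Mix and 1318 ± 131 in Y. Cre07g355850 was at 692 ± 147, 473 ± 24.9, 1132 ± 75.3, 1000 ± 36.5 and 1239 ± 110 CPM in control, Ce, Tm, Y and Mix. The control SD of each of these genes was a large part of the step from control to Ce. For g6609 the means were 546 ± 112 CPM in the control, 366 ± 15.6 in Ce, 831 ± 101 in Tm, 787 ± 154 in Mix and 1046 ± 68.3 in Y.

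Several of the genes with high rule values had low counts. Cre06g264500 was at 0.863 ± 0.246 CPM in Ce and 2.13 ± 1.48 in the control, against 7.09 ± 2.55 in Tm, 4.72 ± 1.71 in Y and 8.30 ± 2.75 in Mix (SD, n = 5). Cre06g258583 rose from 1.65 ± 0.63 CPM in the control to 8.81 ± 2.43 in Tm and was at 0.658 ± 0.173 in Ce. Cre11g467550 had 1.71 ± 0.14 CPM in Ce, 3.59 ± 1.41 in the control, 10.9 ± 2.85 in Tm, 7.85 ± 1.2 in Y and 11.7 ± 4.17 in Mix. For Cre06g258583 and Cre11g467550 all 5 Ce libraries were below all controls. For g17841 control library 4, at 14.02 CPM, was far above the other controls (3.29 to 5.85 CPM). Cre01g036950 was at 7.58 to 13.3 CPM in Ce, 11.6 to 25.4 in the control, 38.1 to 47.5 in Tm, 28.0 to 47.6 in Y and 33.9 to 55.0 in Mix.

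**Figure D2:**
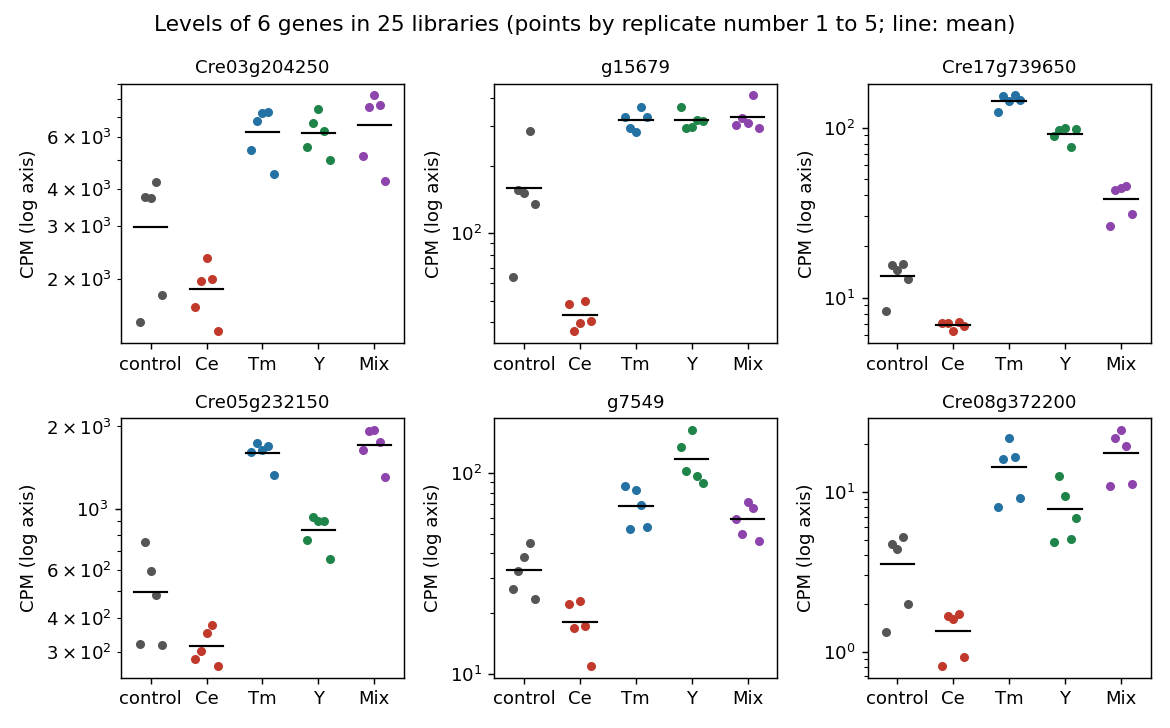
CPM (log axis) of 6 of the genes in all 25 libraries. Points are libraries, from left to right by replicate number 1 to 5, and the line is the group mean. Control library 1 lies at or near the Ce level in each of them. Cre17g739650 is the gene in which the 5 groups are all separate.

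The Ce group and the other exposures were far apart in the whole group, while the Ce group and the control overlapped in most genes. In 150 of the 150 genes every Ce library lay below every Tm, Y and Mix library, a pattern found in 33.8% of all transcripts past the floor. The median log2 difference was -1.57 between Ce and Tm, -1.45 between Ce and Y and -1.64 between Ce and Mix. All Ce libraries lay below all controls in 45 of the 150 (30.0%), near the 36.5% of all transcripts. All Tm libraries were above all controls in 128 (30.7% of all transcripts), all Y libraries in 124 (35.2%) and all Mix libraries in 131 (28.2%). The control was separate from both sides, above all Ce and below all other exposed libraries, in 31 of the 150 genes and in 0.551% of all transcripts. Since the rule used these group means, nothing is read from these shares. The overlap of Ce with the control is not read as a trait of these genes either.

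Control library 1 stood apart from the other controls in these genes and lay at the level of the Ce libraries. Taken over the 150 genes, its median log2 level was -0.64 from the control mean, against 0.27, 0.17, 0.35 and -0.15 in control libraries 2 to 5 and -0.74 to -0.59 in the 5 Ce libraries. It was the lowest control in 132 of the 150 genes (88.0%), against 50.0% of all transcripts past the floor, and control library 5 was the lowest in 17. The level in control library 1 did not exceed that of the highest Ce library in 97 of the genes (64.7%, against 60.6% of all transcripts past the floor) and was below the lowest Ce library in 31 (47.3% of all transcripts were). For control libraries 2 to 5 the first count was 2, 5, 0 and 22, against 49.2%, 51.6%, 50.5% and 54.7% of all transcripts. The share for library 1 was thus near that of all transcripts, and those of the other control libraries were below it. The genes were chosen for a Ce mean below the control mean, which bears on these counts. Set against control library 1 alone, the median log2 change of the Ce mean was -0.03, and against the others it was -0.88, -0.78, -0.997 and -0.46. Over all transcripts past the floor these medians were 0.12, -0.19, -0.08, -0.11 and 0.01.

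Against Tm, Y and Mix all control libraries were low in most of the genes. Control library 1 was below all 15 libraries of these exposures in all 150 genes, and control libraries 2 to 5 were so in 132, 132, 121 and 149. The same was true of 39.3%, 35.5%, 39.0%, 41.7% and 38.5% of all transcripts past the floor. Without control library 1 the median log2 changes were -0.80 for Ce and 0.70, 0.55 and 0.77 in Tm, Y and Mix. The scaling factor of control library 1 was 1.14, between those of the other controls (0.713 to 0.902) and those of Ce (1.38 to 1.46). The part of that factor in its low levels was not tested.

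**Figure D3:**
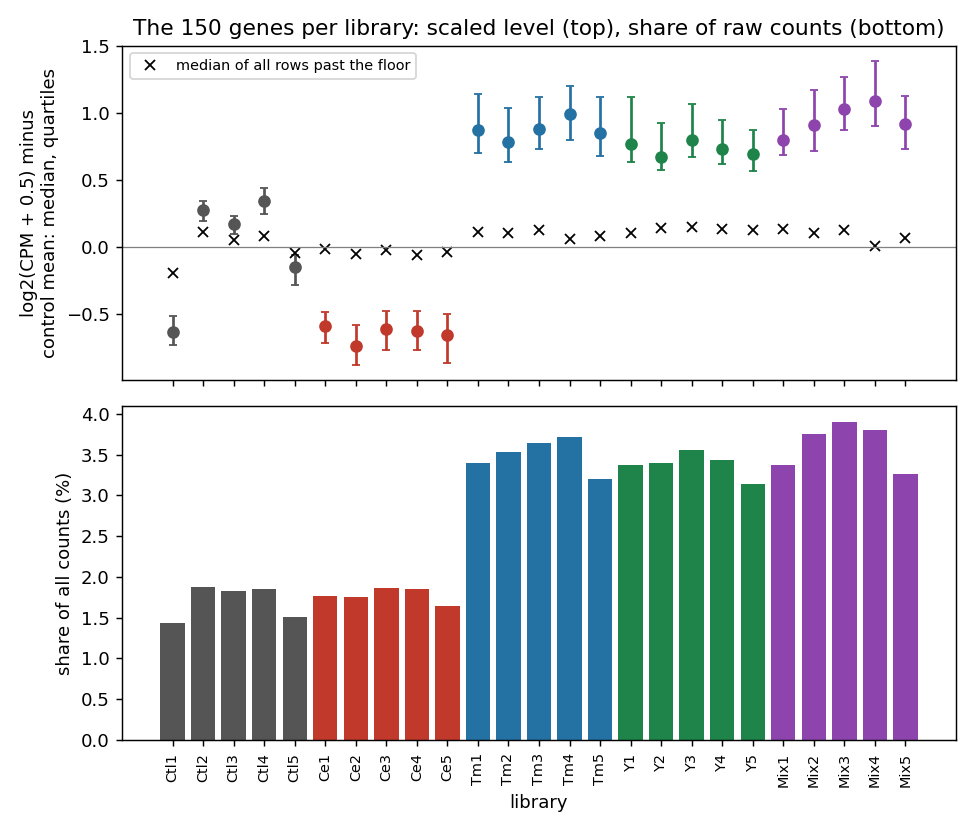
Top: median and quartiles over the 150 genes of log2(CPM + 0.5) minus the control mean in each library, with crosses for the median of all transcripts past the floor. Bottom: the percentage of all counts of a library that fell on the 150 genes, without any scaling. Control library 1 lies with the Ce libraries in the top panel, and the bars of Ce and control are of similar height.

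How far the genes fell in Ce depended on how the libraries were scaled. The 150 genes took 1.78 ± 0.09% of all counts in Ce and 1.70 ± 0.21% in the control, a difference within the spread of the controls (SD, n = 5 each). In Tm they took 3.50 ± 0.20%, in Y 3.38 ± 0.15% and in Mix 3.62 ± 0.28%, and no library of these groups overlapped the control or Ce. Without Cre03g204250 the shares were 1.46 ± 0.14% in the control, 1.51 ± 0.05% in Ce, 2.91 ± 0.10% in Tm, 3.01 ± 0.14% in Mix and 2.79 ± 0.09% in Y. The TMM factors that scale the libraries were 1.42 ± 0.03 in Ce and 0.866 ± 0.168 in the control, against 0.921 to 0.963 for the means of the other groups.

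With library totals alone, with no such factors, the median log2 change of the 150 genes in Ce was 0.08 in place of -0.67, and 61 of the 150 were below the control. The median of all transcripts past the floor moved to 0.64 under this scaling, so the 150 genes still lay below it. The rises kept their direction in all 150 genes, with medians of 0.98 in Tm, 0.90 in Y and 1.04 in Mix. Under 4 settings with scaling factors (TMM with Tm library 2 or control library 1 as reference, the DESeq2 method and upper quartiles) all 150 genes were below the control in Ce, with medians of -0.77 to -0.63. The mean of Ce was below those of Tm, Y and Mix in all 150 genes also with library totals, with a median difference from Tm of -0.99, and in 136 every Ce library was below every library of the others, as in 15.8% of all transcripts under that scaling. In RNA measured from whole cultures, fewer cells with a transcript and less of it per cell cannot be told apart.

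Whether the pattern holds in libraries that took no part in the choice was looked at by leaving out the 5 libraries of 1 replicate number, choosing 150 transcripts from the other 20 and reading them in the 5 left out. With number 3 left out, all 4 directions were found in 150 of 150. The counts were 146 with number 2, 130 with number 4 and 137 with number 5. With number 1 left out the count was 53, and the median change in Ce against control library 1 was 0.10. All transcripts past the floor showed the 4 directions in 10.8% to 14.2% of cases. The rises were found in 150, 146, 150, 131 and 148 of the 150 with numbers 1 to 5 left out. In each case 1 control library served for all 4 changes. The median difference between Ce and Tm in the left-out libraries was -1.65 to -1.54.

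**Figure D4:**
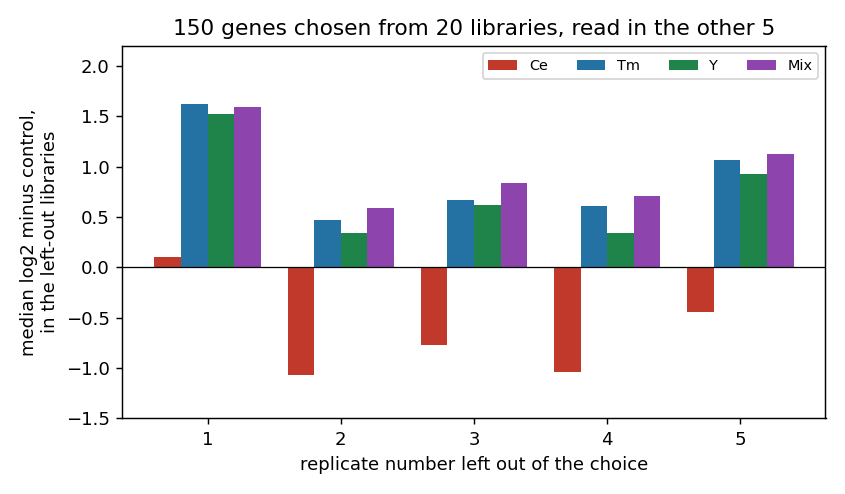
Median log2 change against the control in the 5 libraries of a replicate number that took no part in choosing the 150 transcripts. Bars are Ce, Tm, Y and Mix for each left-out number. Ce lies below 0 with numbers 2 to 5 left out and just above 0, at 0.10, with number 1, while the other exposures are above 0 throughout.

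The rule does not fix the order of Tm, Y and Mix among themselves. These contrasts were tested with edgeR over all 12796 transcripts, of which the 150 genes are a part. The means of these groups took part in the choice of the genes. The shares called and the shares by sign, in the genes and in all transcripts, are therefore not like for like. A call means an adjusted p under 0.05. The group means were highest in Mix in 109 of the genes, in Y in 24 and in Tm in 17. Among all transcripts past the floor the highest mean was in Mix in 16.4%, in Y in 20.0% and in Tm in 4.56%. It was in the control in 32.3% and in Ce in 26.7%. The rule, which asks that Tm, Y and Mix lie above the control and Ce, removed these 2 groups from the order in the 150 genes. The shares of the genes and of all transcripts are thus not like for like.

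Differences between Mix and Tm were small and mostly of the same sign in these genes. The median log2 difference of Mix from Tm was 0.08, with a median SE of 0.13, and 149 of the 150 genes (99.3%) lay within 1.5-fold, against 92.1% of all transcripts tested. Transcripts below the floor are part of that background. The rule also asked for a rise in each of Tm, Y and Mix, so the 2 shares are not like for like. Mix was above Tm in 118 of the 150 genes, against 49.8% of all transcripts. By edgeR, 2 genes (1.33%) were lower in Mix, near the 0.914% of all transcripts, and 0 were higher (0.203%). These values come from the fit without replicate numbers. With the numbers as a block 3 genes were lower and 0 higher (2% and 0%, against 1.56% and 0.696% of all transcripts). Before adjustment 3 genes had p under 0.05 in each direction, and the DESeq2 Wald test also called 0 higher and 2 lower. The genes lower in Mix were Cre17g739650 (log2 difference -1.92 ± 0.145 SE, edgeR adjusted p = 1.4e-09) and Cre04g218950. The values of Cre04g218950 were 24.8 to 33.7 CPM in Mix, 34.4 to 47.1 in Tm and 35.2 to 40.3 in Y, and Mix did not overlap Tm (-0.51 ± 0.11, edgeR adjusted p = 0.0129). Its call was lost without Mix library 4 (adjusted p = 0.0567) and without Tm library 3 (adjusted p = 0.0681, edgeR), when 1 gene remained called. That of Cre17g739650 held under all alternatives tried.

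Against Y, Mix was higher in 45 of the 150 genes (16.5% of all transcripts were) and lower in 10 (19.2%). The median log2 difference over the genes was 0.22, against -0.05 over all transcripts tested. The difference was positive in 120 of 150 genes, against 46.0% of all. Y set the rule value in 63 genes and Mix in 9, so these shares are not like for like. Highest in Mix relative to Y were Cre08g372200 (1.18 ± 0.32, edgeR adjusted p = 0.00573) and g2743 (1.16 ± 0.35, edgeR adjusted p = 0.011). The latter had 6.89 to 12.9 CPM in Mix and 2.35 to 6.67 CPM in Y, with no overlap. Cre05g232150 had 1644, 1920, 1939, 1756 and 1307 CPM in Mix libraries 1 to 5 and 654 to 937 CPM in Y. Mix lay well above every Y library of that gene (1.04 ± 0.17, edgeR adjusted p = 4.09e-05). Lowest in Mix relative to Y were Cre17g739650 (-1.28 ± 0.14, edgeR adjusted p = 1.24e-07) and Cre12g505850 (-1.09 ± 0.265, edgeR adjusted p = 0.0021).

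The number of genes called between Mix and Y depended on the fit. The share higher in Mix was above that of all transcripts throughout, by a margin that also depended on the fit. The numbers were 45 higher and 10 lower with Tm library 2 as scaling reference and 57 and 5 with the DESeq2 size factors. They were 73 and 7 with upper quartiles and 92 and 4 with control library 1 as reference. The calls over all transcripts moved in the same direction, from 16.5% higher and 19.2% lower to 21.0% and 15.8%, 22.3% and 15.1%, and 25.5% and 12.3%. The last of these scalings moved the median of all transcripts tested from -0.05 to 0.09 and that of the 150 genes from 0.22 to 0.36. Without control library 1 the fit called 74 higher (49.3%, against 20.3% of all transcripts). Without Mix library 4 it called 24 (16.0%, against 13.3%), and without Y library 2 it called 28 (18.7%, against 13.9%). In these last fits the share was thus much nearer to that of all transcripts. The 10 lower became 6 without Mix library 5 or without Y library 1 (4% each, against 17.1% and 17.3% of all transcripts). In a fit of these groups alone 82 were higher and 12 lower (23.7% and 25.7% of all transcripts). With the replicate numbers as a block 51 were higher and 15 lower (34% and 10%, against 18.8% and 22.6% of all transcripts).

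Between Tm and Y, 8 genes were higher in Tm (9.60% of all transcripts were) and 2 were lower (11.2%). The median log2 difference was 0.14, against -0.04 over all transcripts tested, and 141 of the 150 genes (94.0%) lay within 1.5-fold, against 78.4% of all transcripts. As for Mix and Tm, the shares called and those within 1.5-fold are not like for like. The leading genes higher in Tm were Cre06g258583, at 5.47 to 10.9 CPM in Tm and 3.69 to 5.97 CPM in Y (0.98 ± 0.24, edgeR adjusted p = 0.00484), and Cre05g232150, at 1328 to 1739 CPM in Tm (0.94 ± 0.17, edgeR adjusted p = 0.000361). Those higher in Y were g7549 and Cre12g505850. The first had 89.2 to 164 CPM in Y, 52.9 to 85.9 in Tm and 46.1 to 72.0 in Mix, so Y overlapped neither (Tm minus Y -0.77 ± 0.20, edgeR adjusted p = 0.00701). For Cre12g505850 the levels were 20.3 to 51.5 CPM in Y and 12.2 to 26.4 CPM in Tm, with overlap (-0.85 ± 0.26, edgeR adjusted p = 0.0212). Its call was lost in the fit of these groups alone (edgeR adjusted p = 0.0534). It was also lost without Tm library 2 or 5 or Y library 1 or 3 (edgeR adjusted p = 0.059 to 0.0909), and each of these omissions left 1 gene called lower.

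The number called between Tm and Y varied with the fit, and so did its place against all transcripts. As reported, genes higher in Tm made up 5.33% of the 150, below the 9.60% of all transcripts. With control library 1 as scaling reference 42 were higher and 2 lower, and the 28.0% higher lay above the 16.2% of all transcripts. With upper quartiles 21 were higher and 2 lower (14% higher, against 13.2%). In a fit of these groups alone 57 were higher and 4 lower (38.0% higher, against 19.5%). With the replicate numbers as a block 17 were higher and 10 lower (11.3% and 6.67%, against 12.5% and 15.2% of all transcripts). Without control library 1, which takes no part in the contrast, 39 were higher and 4 lower (26.0% higher, against 14.1%). Without control library 4, 13 were higher (8.67%, against 11% of all transcripts), and without Tm library 4 the number was 5 (3.33%, against 7.26%). Without Y library 5, 4 were higher and 4 lower (2.67% each, against 7.84% and 8.94% of all transcripts). Whether these genes were called higher in Tm more or less often than all transcripts thus depended on the fit.

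**Figure D5:**
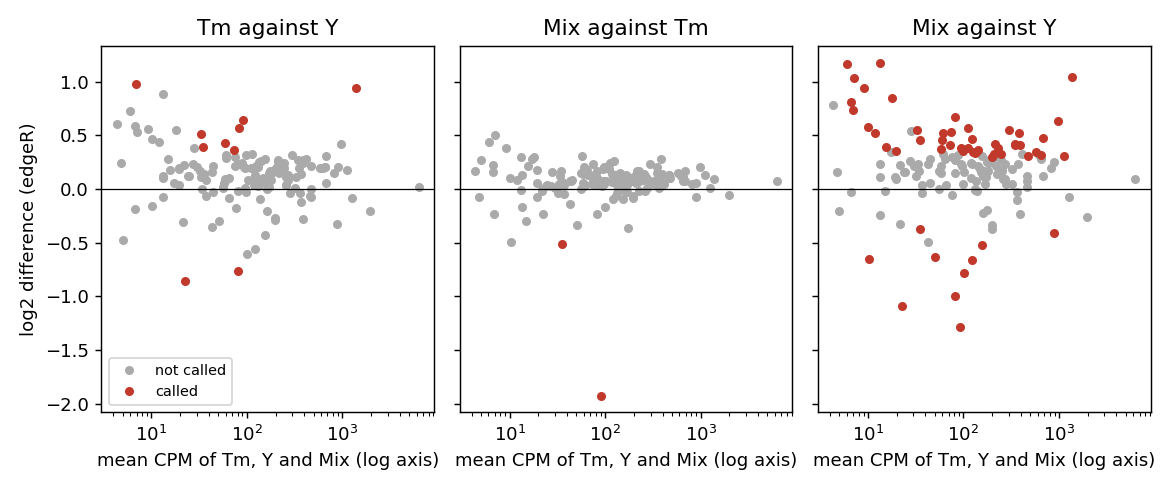
Log2 difference (edgeR) of each of the 150 genes in the contrasts whose direction the rule did not fix, against its mean CPM in Tm, Y and Mix (log axis). Red points are called at an adjusted p under 0.05. Mix against Tm has 2 called genes, Tm against Y has 10 and Mix against Y has 55, most of them above 0.

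The profiles of the genes over the 25 libraries were alike. Pearson's r of log2(CPM + 0.5) between pairs of genes had a median of 0.944 and a range of 0.572 to 0.998, over libraries that share 5 groups. All were chosen for the same group pattern, so high values follow from the choice. Lowest in likeness to the mean profile of the group was Cre12g505850 (r = 0.785), followed by g4563 (0.817), g18402 (0.828), Cre07g3391501 (0.849) and Cre14g612450 (0.850). All of these had their highest group mean in Y.

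Genes outside the group had profiles as close to it as its own members. Most alike by r with the mean profile over 25 libraries were Cre04g227350 (0.993), Cre12g503600 (0.992), Cre01g038250 (0.990), g1851 (0.990) and Cre12g497900 (0.988), against a median of 0.978 for the members. In all, 44 transcripts outside had a higher r than that median. Cre04g227350 had means of 118 ± 27.5 CPM in the control, 85.6 ± 4.60 in Ce, 195 ± 7.76 in Tm, 208 ± 14.3 in Mix and 182 ± 6.16 in Y (SD, n = 5). Its rule value was 0.461, at rank 171.

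Spread between libraries of a group was largest in the control. The median coefficient of variation over the 150 genes was 26.6% in the control, 7.22% in Ce, 8.14% in Tm, 10.1% in Mix and 6.29% in Y. Over all transcripts past the floor it was 24.4% in the control and 9.01%, 12.6%, 15.0% and 9.96% in Ce, Tm, Mix and Y. The range of mean levels was wide, from 1.60 to 2987 CPM in the control with a median of 67.1 CPM, against a median of 16.8 CPM over all transcripts past the floor.

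Some of the genes had their lowest level in the same replicate number in every group. In 13 of the 150 (8.67%) library 5 had the lowest CPM in each of the 5 groups, against 1.47% of all transcripts past the floor. Among them were Cre05g232150, Cre13g577100, Cre03g205900, g4563 and g18402. For Cre03g205900 library 5 had 173 CPM in the control, 90.2 in Ce, 264 in Tm, 255 in Mix and 320 in Y, while the other libraries held 178 to 431, 119 to 167, 377 to 548, 344 to 678 and 458 to 587 CPM in these groups. For numbers 1 to 4 such genes numbered 3 (2%), 0, 0 and 0, against 0.927%, 0.025%, 0.188% and 1.1% of all transcripts past the floor. The labels do not say what a replicate number stands for.

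Of the 150 IDs, 97 matched a locus tag of the reference gene table (assembly Chlamydomonas_reinhardtii_v5.5), which was used only to find neighbours. Among these, 3 genes were next to each other: Cre02g076000, Cre02g076050 and Cre02g076100. Their means were 60.7 ± 16.7, 60.3 ± 17.4 and 167 ± 45.5 CPM in the control (SD, n = 5) and 39.8 ± 2.26, 39.6 ± 4.59 and 107 ± 7.02 CPM in Ce. In Tm they were at 95.6 ± 6.06, 114 ± 9.15 and 277 ± 19.7 CPM, and in Mix at 100.7 ± 6.32, 134 ± 12.3 and 279 ± 17.5 CPM. Of these 3, Cre02g076050 was called higher in Mix than in Y (0.56 ± 0.14, edgeR adjusted p = 0.00203), and the others were not (adjusted p = 0.821 and 0.577). The use of strand in the counting is not given in the sources used here, so reads of overlapping neighbours cannot be told apart.

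The 97 matched genes had 190 other neighbours in the reference, 83 of which passed the floor. The rest of the 150 genes could not be placed. Their median log2 changes were -0.07 in Ce, 0.28 in Tm, 0.26 in Mix and 0.29 in Y, and 18 of them (21.7%) had all 4 directions, against 13.4% of all transcripts past the floor. This difference was not tested. IDs of the form g with a number, which carry no chromosome in their name, made up 43 of the 150 (28.7%) and 23.7% of all transcripts past the floor.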

How the data were processed

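Counts per annotated transcript, not normalised, were deposited by the authors as 1 table with a column per library. The submitters' processing notes name TopHat2 2.0.14, SAMtools 1.2 and Trim Galore 0.3.7. How reads were counted, whether by strand, and on which build and annotation is not given in the sources used here. In 34 cells the text "PAC:" stood in the number and was removed (1 of them in a gene described here, Cre11g468600). Of its lines, 3004 carry an ID that stands on 2 lines, 0 of them among the 150 genes.

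CPM were computed with edgeR 4.0.16 in R 4.3.3, with TMM factors over all rows and Tm library 2 as reference. Tests used edgeR's quasi-likelihood method (filterByExpr, robust, all 25 libraries in 1 fit) over all 12796 transcripts, with Benjamini-Hochberg adjustment. Log2 differences are given with SE, the difference divided by the square root of F. DESeq2 1.42.0 was an alternative. The code was tested on simulated data. The 150 genes, contrasts and gene lists were chosen with earlier results of these data known. The lists, which need gene names, and the protein and promoter features matched nothing and were not used.

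Genes named in the text were those with the 10 largest rule values, the 5 with the highest control CPM, up to 2 called genes with the largest difference per direction of each tested contrast, those beside the threshold, neighbours of each other and the 5 most alike outside. Others, such as Cre12g522200, Cre14g618800 and g3728, the least alike and those lowest in library 5, were chosen after their values were seen.

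Within each group all libraries differed by more than counting error (chi-square over degrees of freedom of 4.63 or more). Groups share replicate numbers 1 to 5. Deviations from the group means correlated between same-numbered libraries at 0.292 to 0.584 for Mix and Tm, over 0.1 in all 5, so these may be pairs on the evidence of the counts, since no label says so. The reported values are from the fit without the block. For Tm and Y (0.0913 to 0.324) 4 of the 5 were over 0.1, and for Mix and Y (0.00593 to 0.335) 3 were.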

Additional observations from a re-analysis of the deposited data

Results flagged for a closer look

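Among 25 named genes and 2 summaries in 5 groups, 135 sets of 5 libraries were looked at for a library far from the other 4, and 10 (7.41%) were found, at a limit that chance passes in about 1 in 20 independent sets. These sets share libraries and are not independent, so no excess is read from the number. Library 4 was the high one in g17841 in the control (14.02 CPM, others 3.29 to 5.85) and in Tm (29.4 CPM, others 14.5 to 18.5), in Cre06g264500 in the control (4.70 CPM, others 1.08 to 2.04), and in Mix for g15679 (411 CPM, others 295 to 326), Cre11g467550 (18.8 CPM, others 8.19 to 11.3) and g2743 (12.9 CPM, others 6.89 to 7.48). Library 1 was the high one in Y for Cre06g264500 (7.65 CPM, others 3.29 to 4.55) and g2743 (6.67 CPM, others 2.35 to 3.18). In Ce, library 2 was the low one for Cre04g218950 (9.42 CPM, others 10.4 to 10.6) and Cre02g076000 (35.8 CPM, others 40.5 to 41.1).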

How the results depend on the processing

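The choice of the genes depended most on scaling: with library totals alone the rule kept 25 of the 150, and 61 had all 4 directions. Under the other planned settings it kept 105 (group medians) to 148, and 103 (without control library 1) to 149 when each library was left out, with all 4 directions in at least 149. TMM factors computed after removal of low counts, chosen after seeing the data, kept 137. The genes called between Tm and Y, 10 as reported, were 29 with library totals, 44 with control library 1 as reference, 23 with upper quartiles, 16 with DESeq2, 61 in a fit of these groups alone, 27 with a replicate block, and 7 to 43 when each library was left out. For Mix and Y, 55 became 96 with control library 1 as reference, 94 in a fit of these groups alone, and 33 to 85 when each library was left out. For Mix and Tm the 2 calls were 3 with the replicate block and 1 to 3 when each library was left out. Calls over all transcripts moved as well. Between Tm and Y they were 9.60% higher and 11.2% lower as reported. They were 16.2% and 7.56% with control library 1 as reference, and 19.5% and 22% in a fit of these groups alone. For Mix and Y, 16.5% and 19.2% became 25.5% and 12.3%, and 23.7% and 25.7%, in the same settings. For Mix and Tm, 0.203% and 0.914% became 0.696% and 1.56% with the replicate block. The cause of these differences was not tested. Of 340 repeats of the 10 single differences named for these contrasts, 333 remained called in the same direction, 7 were no longer called and 0 reversed. The replicate block lost none of these 10 calls. At the lowest levels, near 1 CPM, few counts limit the precision.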
